A study of Mus musculus with 6 samples.

Results

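The cytosolic ribosomal protein genes, which encode the protein parts of the ribosome outside mitochondria, were followed in bulk RNA sequencing of mouse liver. They were taken from the count table by symbol: every gene named Rpl or Rps with a number, an optional a, x, y or l and an optional further number, plus Rplp0, Rplp1, Rplp2 and Rpsa. This gave 84 of 22599 genes, 52 of the large and 32 of the small subunit. The pattern also takes in copies such as Rpl7l1 and Rps27l and the processed pseudogenes Rpl32l and Rpl6l, and it leaves out ribosomal proteins with other symbols (such as Fau and Rack1) and Rpl36al.

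The series compares NcoR1ΔHep and flox livers around hepatic ischemia-reperfusion (IR); the NcoR1 protein represses transcription as a partner of nuclear receptors. Of the 6 libraries analysed here, 3 came from mice named NcoR1ΔHep in the housing notes and given the genotype "knockdown NcoR1", and 3 from mice named flox in the titles, NcoR1fl/fl in the housing notes and given the genotype "WT". All 6 carry 0 h in the title and liver IR as treatment, and whether these livers were operated on is not stated. The driver of the deletion, the age and the sex of the mice and whether each library came from its own mouse are not stated either, so the p-values measure the spread between libraries, which may be technical.

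Each ribosome holds a single copy of nearly every ribosomal protein, so cells make these proteins in matched amounts. In mammals their mRNAs begin with a 5′ terminal oligopyrimidine (TOP) tract, a C followed by a run of C and U, through which mTORC1 and the RNA-binding protein LARP1 set how actively they are translated. The mRNAs are short and among the most abundant of most cells, hepatocytes included.

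The TOP tract is the sequence these genes are known for, so the annotated start sites were read. RefSeq (GRCm38.p6) had a start site for 63 of the 84 genes. In 14 of the 63 (22.2%), the DNA at an annotated start read C followed by at least 4 pyrimidines on the coding strand, against 813 of 27025 genes with an entry (3.01%). The share was 20.5% in the large subunit (8 of 39) and 25.0% in the small subunit (6 of 24). With a shift of up to 5 bases either way allowed, it was 47.6% (30 of 63), against 21.2% of all genes. Each of the following windows runs from 15 bases before the annotated start through the first 15 bases of the transcript. Capitals mark the C at the start and the pyrimidines that follow it. The first 4 belong to genes of high or low FPKM described below, Rps6 encodes the substrate of S6 kinase, and Rpl35 has one of the longer tracts.
Rpl28, chr7:4792950-4792979, plus strand: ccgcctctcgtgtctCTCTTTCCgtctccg
Rps18, chr17:33955651-33955680, minus strand: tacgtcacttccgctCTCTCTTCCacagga
Rps27, chr3:90213634-90213663, minus strand: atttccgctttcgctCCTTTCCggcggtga
Rps15a, chr7:118116133-118116162, minus strand: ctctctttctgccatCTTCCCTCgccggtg
Rps6, chr4:86857353-86857382, minus strand: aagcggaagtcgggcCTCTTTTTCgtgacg
Rpl35, chr2:39005117-39005146, minus strand: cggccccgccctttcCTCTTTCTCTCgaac

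Most of the 63 genes had no such tract at the annotated start. Among them were Rpl7l1 and Rps4x, shown here, whose profiles over the libraries were among the least like those of their subunits. Rps13 and Rps16, whose profiles correlated with the median of their subunit at r = 1.0 each, had none at the annotated start either. Capitals here mark the longest run of pyrimidines in the window. The absence says only that these letters are not at this annotated position, which may differ from the start used in liver.
Rpl7l1, chr17:46782642-46782671, minus strand: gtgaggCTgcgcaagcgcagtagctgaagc
Rps4x, chrX:102189377-102189406, minus strand: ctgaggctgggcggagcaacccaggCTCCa

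The libraries held 36975231 to 38470468 counts each. Of all genes, 13205 passed edgeR's filter on low counts (filterByExpr), and 82 ribosomal protein genes were among them, 50 of the large and 32 of the small subunit. NcoR1ΔHep 1 stood apart from the other 5 libraries in sex-linked transcripts: it had 17138 Xist counts, against 6 to 18 in the others, and 0.534 CPM (counts per 1000000 counts of the library) of Y-linked genes, against 113 to 271 CPM. The results on the group difference that turn on it are also given without it. Ncor1 itself was at 5.34, 6.63 and 4.93 FPKM (CPM per kilobase of gene) in NcoR1ΔHep and at 6.78, 6.70 and 7.72 FPKM in flox. The groups did not overlap in these FPKM, which are not scaled by TMM factors. An exact two-sided permutation test of them gave p = 0.1, the smallest that 3 against 3 allows. The TMM factor was 1.01 in NcoR1ΔHep 2 and 1.11 in flox 1, which puts flox 1 below NcoR1ΔHep 2 once scaled, so that the groups overlap. For Ncor1, edgeR gave a log2 fold change of -0.31 (SE 0.21, adjusted p = 0.931). Hepatocyte markers summed to 128000 to 142000 CPM in NcoR1ΔHep and 134000 to 141000 CPM in flox. Markers of other liver cells were lower by orders of magnitude, with sinusoidal endothelial markers at 100 to 239 CPM in NcoR1ΔHep and 154 to 430 CPM in flox.

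Together the ribosomal protein genes took 2.60%, 1.97% and 1.23% of the counts in NcoR1ΔHep 1, 2 and 3. In flox 1, 2 and 3 they took 1.49%, 1.25% and 1.96%. The order of the libraries crossed the genotypes: NcoR1ΔHep 1, NcoR1ΔHep 2 and flox 3 were high, and NcoR1ΔHep 3 lay with flox 1 and flox 2. The highest share was 2.11 times the lowest. The widest 95% Wilson interval of these shares spanned 0.010 percentage points, which covers counting error only, so depth did not limit this order. The mean share was 1.93% ± 0.685 in NcoR1ΔHep and 1.56% ± 0.357 in flox (SD, n = 3 each), a difference of 0.367 percentage points that was smaller than the SD of NcoR1ΔHep. Without NcoR1ΔHep 1 the difference was 0.0333 percentage points. Mitochondrially encoded transcripts took 6.66%, 5.77% and 10.4% of counts in NcoR1ΔHep and 6.16%, 8.80% and 4.50% in flox, and the libraries with the most of them, NcoR1ΔHep 3 and flox 2, had the lowest shares of ribosomal protein genes. With mitochondrially encoded genes and Alb taken out of the total, the shares were 3.01%, 2.27% and 1.50% in NcoR1ΔHep and 1.75%, 1.52% and 2.20% in flox, in which the same 3 libraries were high. The summed CPM of neutrophil and of cholangiocyte markers was also highest in NcoR1ΔHep 1, NcoR1ΔHep 2 and flox 3, but the lists' median deviations (log2 CPM with TMM factors less each gene's mean) did not follow that order. The 6 neutrophil markers, 3 of which passed the count filter, summed to 5.15, 6.75 and 3.89 CPM in NcoR1ΔHep and 2.48, 2.57 and 12.7 CPM in flox, with median deviations of -0.01, 0.51 and 0.14 in NcoR1ΔHep and -1.09, -0.76 and 1.57 in flox. The 5 cholangiocyte markers, 4 of which passed, summed to 61.1, 170 and 37.6 CPM in NcoR1ΔHep and 44.4, 43.0 and 56.6 CPM in flox, with median deviations of 0.05, 1.21 and -0.45 in NcoR1ΔHep and 0.17, -0.41 and -0.54 in flox. None of these markers was at 0 in all 6 libraries, and their part in the result was not tested. In whole tissue, fewer cells of a type and less RNA per cell cannot be told apart.

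The 2 subunits kept a nearly constant ratio. Large subunit genes took 1.54%, 1.16% and 0.733% of counts in NcoR1ΔHep and 0.882%, 0.748% and 1.16% in flox. Small subunit genes took 1.05%, 0.805% and 0.497% in NcoR1ΔHep and 0.604%, 0.506% and 0.798% in flox. The ratio of large to small subunit counts therefore ran from 1.44 to 1.48 over all 6 libraries, while the share itself ranged 2.11-fold in the large and 2.12-fold in the small subunit. In FPKM sums, which take gene length into account, the ratio ran from 1.35 to 1.37.

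**Figure D1:**
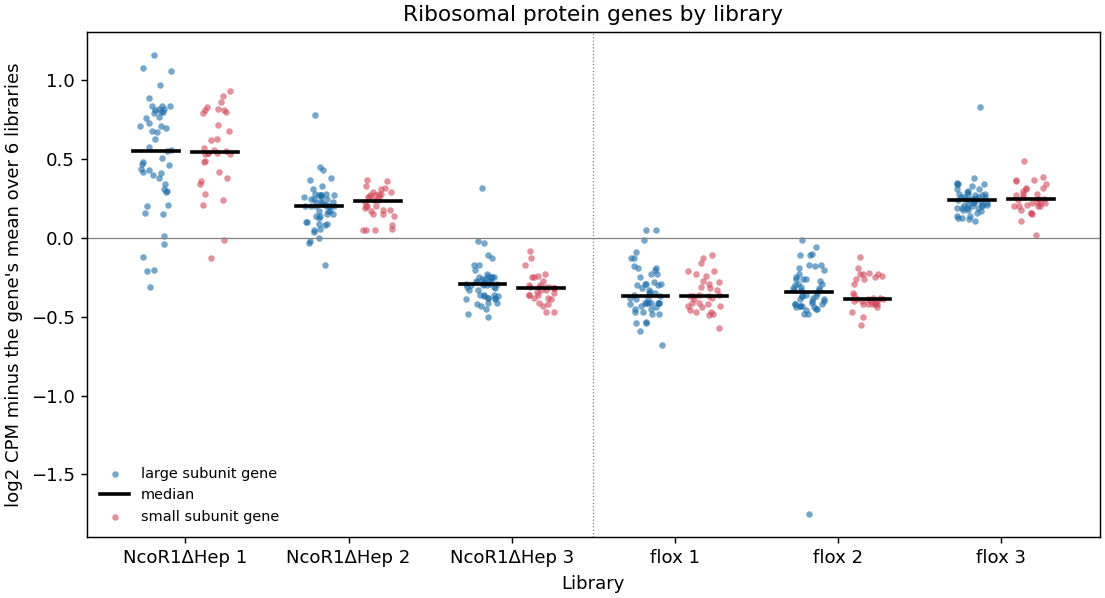
Each point is 1 of the 82 tested ribosomal protein genes in 1 library, as log2 CPM (TMM-scaled) minus the gene's mean over the 6 libraries, with large subunit genes in blue, small subunit genes in red and black bars at the medians. NcoR1ΔHep 1, NcoR1ΔHep 2 and flox 3 sit above 0 and the other 3 libraries below, with the widest scatter in NcoR1ΔHep 1.

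Gene by gene, the library order was shared by most members of both subunits. On the scale of log2 CPM with TMM factors, less each gene's mean over the 6 libraries, the large subunit median was 0.56, 0.20 and -0.29 in NcoR1ΔHep 1, 2 and 3 and -0.36, -0.34 and 0.24 in flox 1, 2 and 3. The small subunit median was 0.55, 0.23 and -0.32 in NcoR1ΔHep and -0.37, -0.39 and 0.24 in flox. NcoR1ΔHep 1 was the highest library for both subunits, with NcoR1ΔHep 2 and flox 3 next at about the same level. The order of the 3 low libraries depends on the scaling, since flox 1, which has the highest TMM factor (1.11), had a higher share of counts than NcoR1ΔHep 3 and flox 2.

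In 76 of the 82 tested genes (45 of 50 large, 31 of 32 small), NcoR1ΔHep 1, NcoR1ΔHep 2 and flox 3 were the 3 highest libraries, a share of 92.7%, against 15.5% of the 13123 other genes tested. The 6 exceptions were Rpl3, Rpl5, Rpl7l1, Rpl22l1, Rplp0 and Rps4x, of which Rpl5 and Rplp0 are named because they fell outside the pattern. NcoR1ΔHep 1 was the highest of the 6 libraries in 65 genes (79.3%), against 28.8% of other genes. Flox 3 lay above the 6-library mean in all 82, against 54.9% of other genes. Correlated over the 6 libraries with the median of its own subunit, to which each gene contributes, a gene had a median Pearson r of 0.97, and r was 0.9 or more in 68 of 82 genes (39 of 50 large, 29 of 32 small). The medians of the large and small subunits correlated at r = 0.998 over the 6 libraries. These correlations share libraries and scaling and are given as a description. The range from the lowest to the highest library had a median of 0.97 log2 units, from 0.45 in Rpl15 to 2.58 in Rpl32l, which had 2 to 17 counts a library.

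Members differed in level far more than the groups did. In FPKM averaged over the 6 libraries, large subunit genes had a median of 205 (quartiles 147 and 338) and small subunit genes a median of 263 (quartiles 188 and 399), where the median of all tested genes was 2.70. Of the tested members, 41 of 50 large and 29 of 32 small subunit genes reached 100 FPKM. FPKM here divides by a gene length that can far exceed the mRNA: for Rps15a, a small subunit protein, that length was 5136 bases with a coding length of 390 bases, and for Rps20 3446 bases with a coding length of 357 bases. Both were lowest of the small subunit in FPKM (ranks 32 and 31 of 32). Per kilobase of coding length, Rps20 ranked 15th of 32 at 464 CPM, and Rps15a ranked 28th at 329 CPM. On that scale the subunits had medians of 427 CPM (large, quartiles 295 and 552) and 447 CPM (small, quartiles 373 and 576).

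The group comparison asked whether these genes differ between NcoR1ΔHep and flox livers. None of the 82 tested members passed edgeR's quasi-likelihood test at an adjusted p of 0.05, where 0 of 13205 genes (0%) did. At an unadjusted edgeR p of 0.05 the count was also 0 of 82, against 443 of 13205 genes (3.35%). DESeq2 called 0 of the 84 members at an adjusted p of 0.05 and 5 of 20289 genes (0.0246%), and 0 members had an unadjusted DESeq2 p under 0.05, against 3.02% of genes. No member's groups failed to overlap in TMM-scaled CPM, against 1165 of 13205 genes (8.82%). By sign, 75 members were higher and 7 lower in NcoR1ΔHep (45 and 5 of the large, 30 and 2 of the small subunit; 77 and 5 in all with upper-quartile scaling), where 53.5% of all tested genes were higher. The median log2 fold change was 0.33 in the large and 0.36 in the small subunit, against 0.03 over all tested genes. Members are not independent of each other, since they share the library order given above, and the count by sign is no test.

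Much of that difference rested on NcoR1ΔHep 1. Without it, the median log2 fold change was 0.12 in the large and 0.13 in the small subunit, and 70 of 82 members were higher in NcoR1ΔHep. Without NcoR1ΔHep 3 it was 0.55 in both subunits, and 6 members had an unadjusted edgeR p under 0.05, where 6.87% of all genes did. Without flox 3 it was 0.60 in the large and 0.59 in the small subunit, and 2 members, Rps28 and Rpl39, had one, where 5.49% of all genes did. No member passed at an adjusted p of 0.05 with any library left out.

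**Figure D2:**
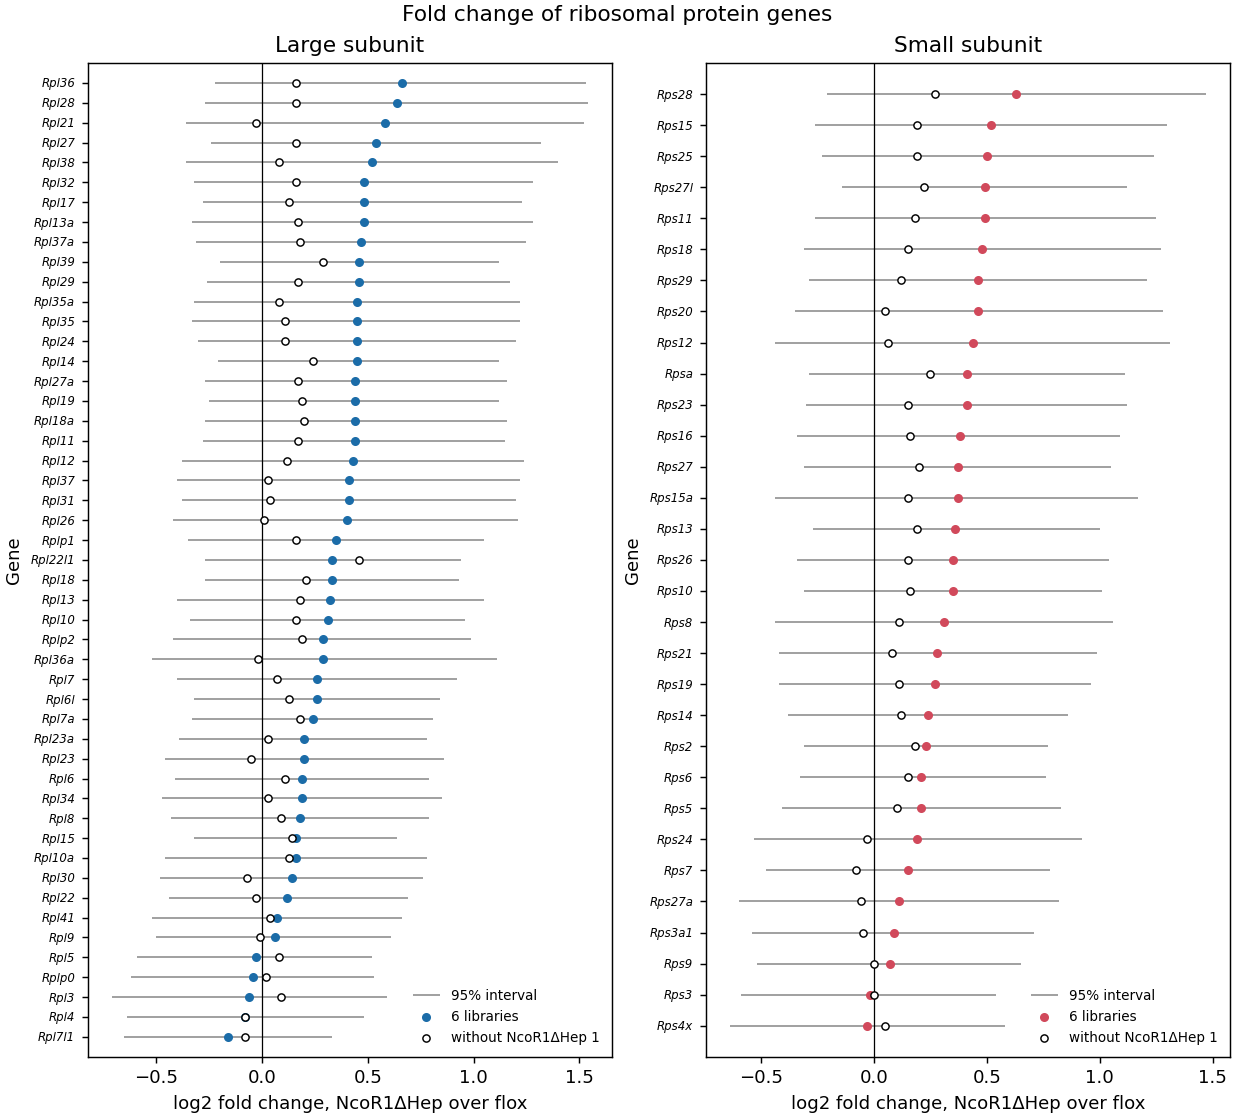
Log2 fold change of NcoR1ΔHep over flox (x axis) for 80 of the 82 tested ribosomal protein genes. Rpl32l, with an interval of -1.35 to 2.0, is among those not drawn. Filled points are edgeR estimates from 6 libraries with 95% intervals as bars, and open points are estimates without NcoR1ΔHep 1; every bar spans 0, and most open points lie closer to 0 than the filled ones.

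Of the large subunit, the 4 genes with the smallest p were Rpl36, Rpl28, Rpl39 and Rpl27, core proteins of which Rpl39 lines the tunnel through which the new peptide leaves. Rpl36 was at 408, 188 and 132 FPKM in NcoR1ΔHep, against 137, 125 and 192 FPKM in flox, a log2 fold change of 0.66 (SE 0.38, edgeR adjusted p = 0.931). Rpl28 was at 1190, 595 and 370 FPKM in NcoR1ΔHep, against 407, 356 and 598 FPKM in flox, a log2 fold change of 0.64 (SE 0.39, edgeR adjusted p = 0.931). In both genes NcoR1ΔHep 1 was the highest by a wide margin, while the other 5 libraries of the 2 groups interleaved. Without NcoR1ΔHep 1 the log2 fold change was 0.16 for each. Rpl27 was at 327, 184 and 118 FPKM in NcoR1ΔHep, against 138, 112 and 179 FPKM in flox, again with NcoR1ΔHep 1 highest and NcoR1ΔHep 2 and flox 3 next (log2 fold change 0.54, and 0.16 without NcoR1ΔHep 1). Rpl39 was at 532, 403 and 273 FPKM in NcoR1ΔHep, against 246, 246 and 381 FPKM in flox. Its groups overlapped only because flox 3 exceeded NcoR1ΔHep 3, and its log2 fold change was 0.46 with all libraries (SE 0.29, edgeR adjusted p = 0.931) and 0.29 without NcoR1ΔHep 1.

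Of the most abundant large subunit genes, Rpl41, which encodes the smallest ribosomal protein, was at 836, 857 and 509 FPKM in NcoR1ΔHep, against 689, 561 and 854 FPKM in flox. The groups overlapped across their whole range, and the log2 fold change was 0.07 (SE 0.26, edgeR adjusted p = 0.983). Rpl41 was first of its subunit in FPKM and per kilobase of coding length (4300 CPM), and with a coding length of 75 bases the value per kilobase is sensitive to what is counted as its length. Rplp1, an acidic protein of the stalk that binds translation factors, was at 1010, 808 and 446 FPKM in NcoR1ΔHep, against 581, 446 and 741 FPKM in flox. NcoR1ΔHep 1 and 2 were above all flox libraries and, in FPKM, NcoR1ΔHep 3 equalled the lowest flox library (log2 fold change 0.35, SE 0.31, edgeR adjusted p = 0.931).

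Of the small subunit, the 4 genes with the smallest p were Rps27l, Rps28, Rps25 and Rps15. Rps27l, a copy of Rps27 that p53 induces in human cells, was at 114, 67.6 and 55.0 FPKM in NcoR1ΔHep, against 52.2, 50.5 and 64.3 FPKM in flox. Only flox 3 reached into the NcoR1ΔHep range, and the log2 fold change was 0.49 (SE 0.28, edgeR adjusted p = 0.931), or 0.22 without NcoR1ΔHep 1. Its parent Rps27, a zinc-binding protein, was at 796, 631 and 390 FPKM in NcoR1ΔHep, against 430, 358 and 613 FPKM in flox, with a log2 fold change of 0.37 (SE 0.30, edgeR adjusted p = 0.931). The parent followed the common library order (r = 0.99 with the subunit median), and the copy followed it less closely (r = 0.88), with NcoR1ΔHep 2 and flox 3 near the middle.

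Rps28 was at 468, 281 and 167 FPKM in NcoR1ΔHep, against 173, 146 and 267 FPKM in flox, a log2 fold change of 0.63 (SE 0.36, edgeR adjusted p = 0.931) that was 0.27 without NcoR1ΔHep 1. Rps25, which some viral RNAs need for translation without a cap, was at 685, 416 and 279 FPKM in NcoR1ΔHep, against 303, 260 and 403 FPKM in flox (log2 fold change 0.50, and 0.19 without NcoR1ΔHep 1). Rps15, a protein of the small subunit's head, was at 751, 469 and 282 FPKM in NcoR1ΔHep, against 317, 273 and 447 FPKM in flox (log2 fold change 0.52, and 0.19 without NcoR1ΔHep 1). In all 3 genes NcoR1ΔHep 1 was highest, and NcoR1ΔHep 2 and flox 3 were next and close to each other. In FPKM, NcoR1ΔHep 3 lay within the range of flox 1 and 2. In log2 CPM with TMM factors, NcoR1ΔHep 3 lay above both. Its deviations were -0.31 (Rps28), -0.25 (Rps25) and -0.34 (Rps15). Those of flox 1 were -0.57, -0.44 and -0.47, and those of flox 2 were -0.55, -0.40 and -0.44. Rps18, the highest of the small subunit in FPKM, was at 970, 593 and 369 FPKM in NcoR1ΔHep, against 415, 359 and 598 FPKM in flox (log2 fold change 0.48, SE 0.34, edgeR adjusted p = 0.931). It had the same 3 libraries highest. Rps15a was at 38.9, 30.7 and 15.2 FPKM in NcoR1ΔHep, against 20, 15.4 and 29.8 FPKM in flox, and Rps20 at 89.3, 48.0 and 30.7 FPKM in NcoR1ΔHep, against 38.4, 31.3 and 50.8 FPKM in flox. These low-FPKM genes had the same 3 libraries highest as the abundant ones (log2 fold changes 0.37 and 0.46).

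**Figure D3:**
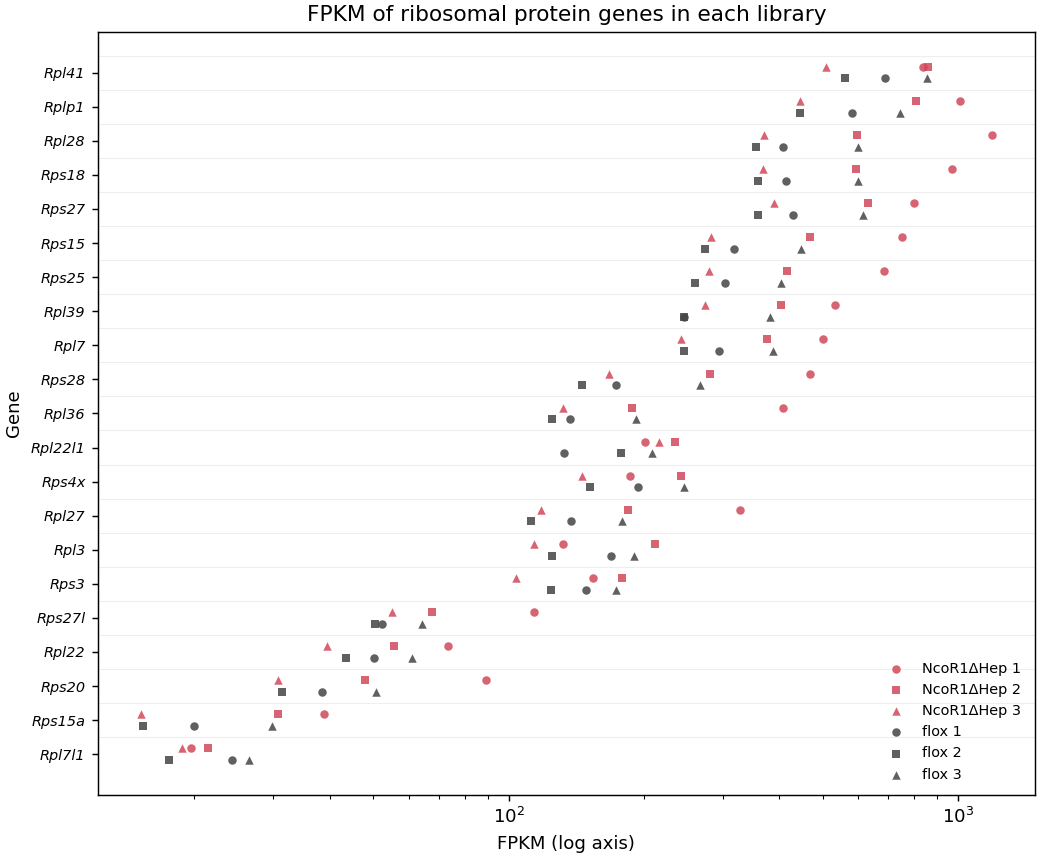
FPKM (log axis) of ribosomal protein genes named in the text in each library, with genes ordered by mean FPKM, NcoR1ΔHep libraries in red above flox libraries in grey, and the symbol showing the replicate number. In most genes the NcoR1ΔHep 1 circle is rightmost, NcoR1ΔHep 2 and flox 3 come next, and Rpl7l1, Rpl3, Rps3, Rps4x, Rpl22l1 and Rpl41 depart from that order.

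The members least like their subunit were Rpl7l1 (r = 0.04 with the median) and Rpl3 (r = 0.23) in the large subunit, and Rps4x (r = 0.54) and Rps3 (r = 0.67) in the small. Rpl7l1, a relative of Rpl7, was at 19.7, 21.5 and 18.8 FPKM in NcoR1ΔHep, against 24.3, 17.6 and 26.4 FPKM in flox, a log2 fold change of -0.16 (SE 0.21, edgeR adjusted p = 0.944). Its libraries spanned a narrow range in FPKM, with flox 3 highest and flox 2 lowest. Rpl7 itself was at 501, 375 and 242 FPKM in NcoR1ΔHep, against 294, 246 and 388 FPKM in flox, with the same 3 libraries highest as in most members (log2 fold change 0.26). Rpl3, which reaches toward the peptidyl transferase centre, was at 132, 212 and 114 FPKM in NcoR1ΔHep, against 169, 125 and 190 FPKM in flox, a log2 fold change of -0.06 (SE 0.28, edgeR adjusted p = 0.986). NcoR1ΔHep 2 and flox 3 were high as in other members, while NcoR1ΔHep 1 was among the low libraries. Rps4x, encoded on the X chromosome, was at 186, 242 and 146 FPKM in NcoR1ΔHep, against 194, 152 and 246 FPKM in flox (log2 fold change -0.03, SE 0.26, edgeR adjusted p = 0.992). Rps3, at the entry of the mRNA channel, was at 154, 179 and 104 FPKM in NcoR1ΔHep, against 149, 124 and 173 FPKM in flox (log2 fold change -0.02, SE 0.25, edgeR adjusted p = 0.992). In these as well NcoR1ΔHep 2 and flox 3 were the highest and NcoR1ΔHep 1 was not, and the sign of both fold changes turned with upper-quartile scaling.

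The remaining copies in the table behaved differently from each other. Rpl22l1, whose transcript the Rpl22 protein is known to hold down in mice, was at 201, 235 and 216 FPKM in NcoR1ΔHep, against 133, 178 and 209 FPKM in flox. In FPKM the groups overlapped by NcoR1ΔHep 1 and flox 3 only, and flox 1 was lowest. In log2 CPM with TMM factors, NcoR1ΔHep 1 (deviation -0.04) lay below flox 2 (-0.01) as well as flox 3 (0.14). The log2 fold change was 0.33 (SE 0.26, edgeR adjusted p = 0.931), or 0.46 without NcoR1ΔHep 1. Rpl22 was at 73.2, 55.7 and 39.5 FPKM in NcoR1ΔHep, against 50.1, 43.4 and 61.1 FPKM in flox, with a log2 fold change of 0.12 (SE 0.25, edgeR adjusted p = 0.959), or -0.03 without NcoR1ΔHep 1. NcoR1ΔHep 3 was thus the lowest library for Rpl22 and the second highest in FPKM for Rpl22l1. Flox 1, in turn, lay below the mean of the libraries for both genes, with deviations of -0.23 (Rpl22) and -0.68 (Rpl22l1). Whether the levels of these genes are linked here was not tested. Rpl3l, the copy of Rpl3 known from heart and skeletal muscle, had 2, 0 and 5 counts in NcoR1ΔHep and 0 in each flox library. Rpl39l, the copy of Rpl39 known from testis, had 1, 0 and 0 counts in NcoR1ΔHep and 0 in each flox library. Neither gene passed the count filter. Without that filter edgeR gave Rpl3l an unadjusted p of 0.0498 (adjusted p = 0.838), where 3.4% of genes were under 0.05, and its fitted fold change is not given, since with all flox libraries at 0 it depends on the prior count. Rpl32l, with 13, 17 and 7 counts in NcoR1ΔHep and 11, 2 and 17 counts in flox, passed it only just. Genes with near-identical processed copies elsewhere are uncertain, since reads may be split among copies: GENCODE lists 307 symbols of Rpl and Rps pseudogenes, of which 10 had a row in the count table.

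Ribosomal protein genes are short, and short genes in general were shifted in these libraries, so the members were set beside genes of like length. Gene length, as implied by count and FPKM, had a median of 808 bases in members and 3571 bases in other tested genes. Coding length, from GENCODE, had a median of 454 bases in members and 1392 bases in other genes, and was available for 80 tested members and 92.2% of other tested genes. Of the 10 equal bins of other genes by gene length, the shortest (105 to 1313 bases, 1313 genes) had a median log2 fold change of 0.24 with 76.1% of genes higher in NcoR1ΔHep, and the longest had a median of -0.06. In the same shortest bin, which also covers the length of 61 members, the median deviation was 0.41, 0.03 and -0.10 in NcoR1ΔHep 1, 2 and 3 and -0.22, -0.17 and 0.08 in flox 1, 2 and 3. Short genes thus shared the elevation in NcoR1ΔHep 1, and less of that in NcoR1ΔHep 2 and flox 3.

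Against a running median over a window of 501 other genes in order of gene length, the members' log2 fold change was 0.07 in the large and 0.08 in the small subunit. Against the same by coding length it was 0.19 in both subunits. At the short end of either length the window stayed at the 501 shortest other genes, so it was not centred on members shorter than its middle gene. The group difference was thus smaller against genes of like length than against all genes, by an amount that depended on which length was used. Less genes of like gene length, the large subunit median deviated by 0.18, 0.17 and -0.20 in NcoR1ΔHep and by -0.15, -0.18 and 0.16 in flox. For the small subunit these values were 0.08, 0.23 and -0.20 in NcoR1ΔHep and -0.13, -0.20 and 0.18 in flox. NcoR1ΔHep 1 then no longer stood clear of NcoR1ΔHep 2 and flox 3, while these 3 libraries remained above the other 3. Less genes of like coding length, the large subunit median deviated by 0.36, 0.19 and -0.27 in NcoR1ΔHep and by -0.20, -0.25 and 0.20 in flox, and NcoR1ΔHep 1 was still the highest. The small subunit gave 0.32, 0.23 and -0.28 in NcoR1ΔHep and -0.19, -0.26 and 0.21 in flox by that length. Other genes with a coding length in the range of the members and at least 48.1 FPKM, a level near the low end of the members (669 genes), had median deviations of 0.18, 0.00 and -0.03 in NcoR1ΔHep and -0.22, -0.05 and 0.07 in flox, and a median log2 fold change of 0.14, or 0.08 without NcoR1ΔHep 1. How much of the members' shift comes from transcript length was not tested.

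**Figure D4:**
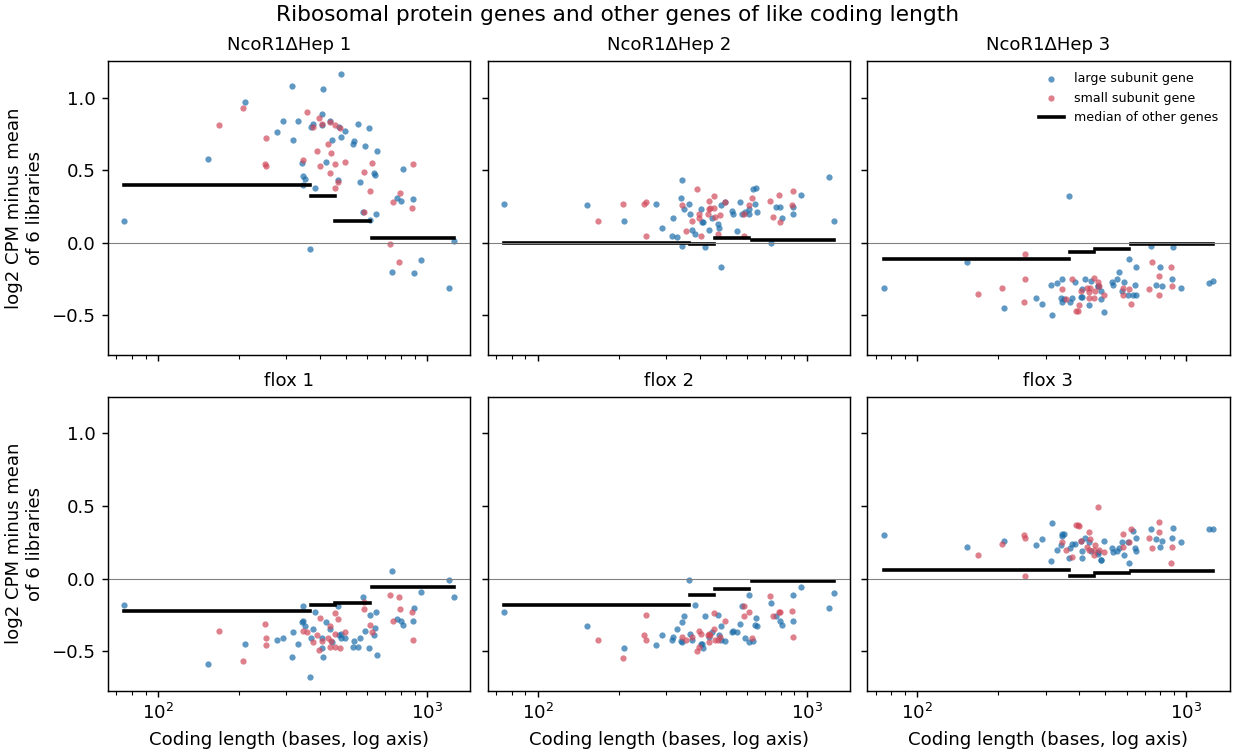
Coding length of each ribosomal protein gene (x axis, bases, log axis) against its log2 CPM minus its mean over the 6 libraries (y axis), with 1 panel a library and black bars at the median of other genes in the same ranges of coding length. In NcoR1ΔHep 1 the points slope down with length (r = -0.49 over 80 genes), while in NcoR1ΔHep 2 and flox 3 most points lie level above the bars and in the other 3 libraries most lie below them.

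Among the members themselves, longer coding sequences went with lower values in NcoR1ΔHep 1 and less negative ones in flox 1 and 2, and hardly with the values in NcoR1ΔHep 2 and flox 3. In 4 equal groups of 20 members by coding length (75 to 366, 369 to 453, 456 to 612 and 624 to 1257 bases), the median deviation of NcoR1ΔHep 1 was 0.65, 0.75, 0.67 and 0.28. That of NcoR1ΔHep 2 was 0.24, 0.19, 0.20 and 0.26, and that of flox 3 was 0.24, 0.24, 0.20 and 0.28. The step down in NcoR1ΔHep 1 came at the group with the longest coding sequences. Other genes in the same ranges had medians of 0.40, 0.32, 0.15 and 0.03 in NcoR1ΔHep 1, lower than the members in each range. The members' median log2 fold change was 0.39, 0.41, 0.43 and 0.19, and that of the other genes 0.25, 0.20, 0.15 and 0.05. Over the 80 members, the deviation correlated with log2 coding length at r = -0.49 in NcoR1ΔHep 1, 0.16 in NcoR1ΔHep 2 and 0.18 in NcoR1ΔHep 3, and at 0.43, 0.43 and 0.13 in flox 1, 2 and 3. With log2 gene length, over 82 members, r was weaker in NcoR1ΔHep 1, flox 1 and flox 2. It was -0.28, -0.14 and 0.17 in NcoR1ΔHep and 0.29, 0.25 and -0.03 in flox. Over other genes, r with coding length was -0.1, -0.08 and -0.04 in NcoR1ΔHep and 0.21, 0.09 and -0.02 in flox. With gene length, r over other genes was -0.14, -0.11 and 0.06 in NcoR1ΔHep and 0.17, 0.17 and -0.11 in flox.

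All 7 members that were lower in NcoR1ΔHep (Rpl3, Rpl4, Rpl5, Rpl7l1, Rplp0, Rps3 and Rps4x) belonged to the 20 longest by coding length. The other 13 of those 20 were higher, and so were all 60 members with shorter coding sequences and the 2 pseudogenes, which have no coding length. With upper-quartile scaling Rps3 and Rps4x were not lower, which left 5 members on that side. Rpl4 and Rpl3 had the longest coding sequences of all tested members (1257 and 1209 bases). Rpl5, which with Rpl11 and 5S rRNA binds the p53 regulator MDM2, had a log2 fold change of -0.03, and Rplp0, the base of the stalk and a common reference gene in RT-PCR, had -0.04. In NcoR1ΔHep 1 their deviations were -0.21 (Rpl5), -0.12 (Rplp0) and -0.31 (Rpl3), while in flox 3 they were 0.35 (Rpl5), 0.25 (Rplp0) and 0.34 (Rpl3). Length did not order every member: Rpl41, the shortest at 75 bases, deviated by 0.15 in NcoR1ΔHep 1, and Rpl21 (480 bases) by 1.16, the highest of all members there, both noted after their values were seen. Without NcoR1ΔHep 1, 16 of the 20 longest and 50 of the 60 others had a log2 fold change above 0 after rounding to 2 decimals. Rps3, among the longest, and Rps9, among the others, rounded to 0.0. The 70 of 82 given above were counted before rounding.

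Members with and without the TOP tract at the annotated start had like values. That start may differ from the one used in liver, so this split cannot tell mRNAs with a TOP tract from mRNAs without one. The 14 tested members with the tract at the annotated start, among them the pseudogene Rpl32l, had a median log2 fold change of 0.37 and the 47 without it 0.33. Their median deviations were 0.59, 0.20 and -0.34 with the tract and 0.54, 0.23 and -0.31 without it in NcoR1ΔHep, and -0.40, -0.41 and 0.22 with it and -0.36, -0.35 and 0.25 without it in flox. Other genes known for TOP mRNAs, among them translation elongation and initiation factors (22 tested), had median deviations of 0.02, 0.07 and -0.08 in NcoR1ΔHep and -0.13, 0.02 and 0.11 in flox. The spread of their medians over libraries was thus smaller than that of ribosomal protein genes, 12 were higher and 10 lower in NcoR1ΔHep, and the median log2 fold change was 0.08. Of these, Eif3l, a subunit of the initiation factor eIF3, was at 26.1, 36.9 and 28.1 FPKM in NcoR1ΔHep, against 42.8, 33.0 and 40.6 FPKM in flox (log2 fold change -0.32, edgeR adjusted p = 0.931). Eef1d, the delta subunit of elongation factor 1, was at 43.9, 26.6 and 18.3 FPKM in NcoR1ΔHep, against 20.4, 17.6 and 28.0 FPKM in flox (log2 fold change 0.42, edgeR adjusted p = 0.931). NcoR1ΔHep 1 was highest for Eef1d, with flox 3 and NcoR1ΔHep 2 next.

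Genes outside the naming pattern gave values within the members' range. Fau, which encodes Rps30 joined to a ubiquitin-like protein, was at 305, 192 and 134 FPKM in NcoR1ΔHep, against 166, 136 and 183 FPKM in flox (log2 fold change 0.37). NcoR1ΔHep 1 was highest, with NcoR1ΔHep 2 and flox 3 next. Rack1, a scaffold on the small subunit, was at 257, 274 and 143 FPKM in NcoR1ΔHep, against 207, 165 and 262 FPKM in flox (log2 fold change 0.09). Rpl36al was at 252, 227 and 156 FPKM in NcoR1ΔHep, against 213, 173 and 237 FPKM in flox (log2 fold change 0.03). In these last genes flox 3 and both high NcoR1ΔHep libraries were at about the same level.

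Ribosome assembly factors and the regulators of ribosomal protein mRNAs varied less between libraries than the members, as medians of their lists. The 40 tested ribosome biogenesis genes had median deviations of 0.03, 0.10 and -0.07 in NcoR1ΔHep and -0.15, -0.22 and 0.27 in flox, with flox 3 highest, and 21 were higher and 19 lower in NcoR1ΔHep (median log2 fold change 0.03). Nhp2, a protein of the small nucleolar particles that guide pseudouridylation, was at 27.5, 21.3 and 14.4 FPKM in NcoR1ΔHep, against 14.3, 12.6 and 19.8 FPKM in flox (log2 fold change 0.43, edgeR adjusted p = 0.931). Of 26 genes of mTOR, LARP1 and MYC regulation, 10 were higher and 16 lower in NcoR1ΔHep (median log2 fold change -0.12). Rptor, the scaffold of mTORC1, was at 2.04, 2.36 and 1.80 FPKM in NcoR1ΔHep, against 3.64, 2.62 and 2.83 FPKM in flox. All NcoR1ΔHep libraries lay below all flox libraries for Rptor, and the log2 fold change was -0.52 (SE 0.19, edgeR adjusted p = 0.931).

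Mitochondrial ribosomal protein and respiratory chain genes were high in NcoR1ΔHep 1 and near their mean in NcoR1ΔHep 2. The 75 mitochondrial ribosomal protein genes, which encode the separate ribosome inside mitochondria, had median deviations of 0.37, 0.01 and -0.12 in NcoR1ΔHep and -0.19, -0.16 and 0.12 in flox, and 61 were higher and 14 lower in NcoR1ΔHep (median log2 fold change 0.19, and 0.06 without NcoR1ΔHep 1). The 74 tested nuclear genes of the respiratory chain had 0.49, -0.03 and -0.12 in NcoR1ΔHep and -0.20, -0.16 and 0.06 in flox, and 64 were higher and 10 lower (median log2 fold change 0.24, and 0.06 without NcoR1ΔHep 1). The 31 proteasome subunit genes stayed closer to 0, at 0.14, 0.07 and -0.09 in NcoR1ΔHep and -0.15, -0.16 and 0.18 in flox. For comparison, the shortest bin of other genes by gene length had 0.41, 0.03 and -0.10 in NcoR1ΔHep and -0.22, -0.17 and 0.08 in flox. In each of these lists and in that bin, NcoR1ΔHep 1, NcoR1ΔHep 2 and flox 3 had the highest medians, as in the members. The same libraries were highest in the ribosome biogenesis genes, and in all of these the margin over the others was smaller than in the members. These lists were not set beside genes of like length. None of them had a member past edgeR's adjusted threshold, and whether the lists differ from the ribosomal protein genes was not tested.

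**Figure D5:**
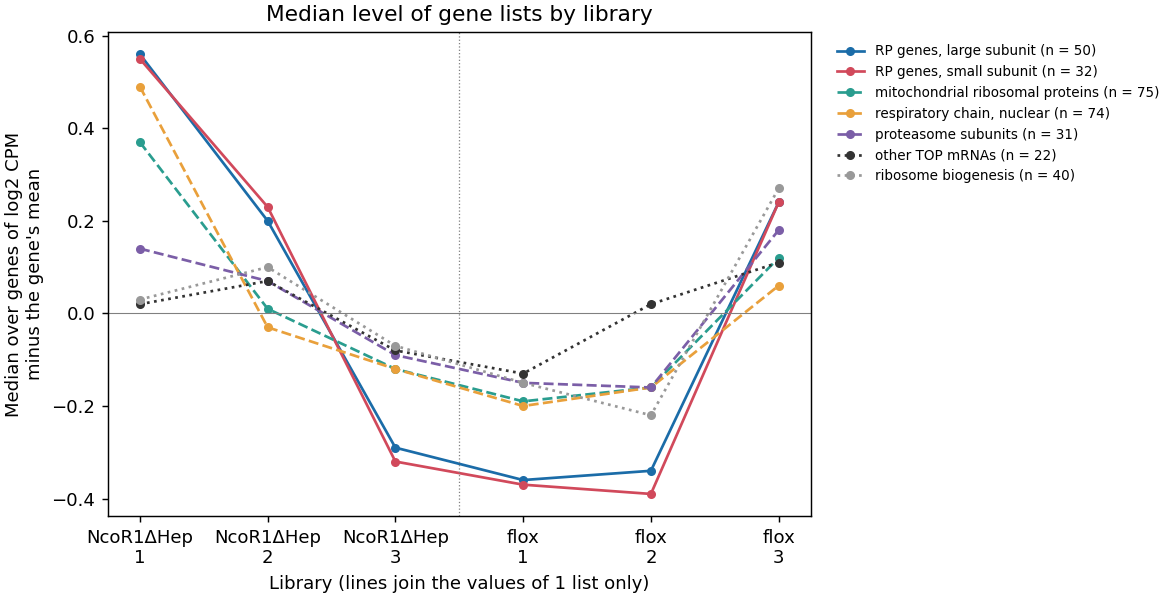
Median over the tested genes of each list of log2 CPM minus the gene's mean over the 6 libraries (y axis), for the NcoR1ΔHep and flox libraries (x axis). Both subunits of the cytosolic ribosome overlie each other and have the widest spread, from 0.56 to -0.39, while mitochondrial ribosomal proteins and respiratory chain genes are high mainly in NcoR1ΔHep 1.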

How the data were processed

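Mouse liver RNA was sequenced in bulk in 6 libraries. Per the labels' protocols, total RNA came from a Qiagen RNeasy kit and was put through a SMARTer library kit for mRNA. The authors deposited whole-number read counts per gene symbol without normalization and, for the same genes and libraries, FPKM. The deposited FPKM were counts divided by a gene length and the library's total: of 12656 genes with 20 counts or more in at least 2 libraries, 99.99% gave a length that was whole within 0.01 bases. The submitters' processing notes name GRCm38, mm10 and hg38 without a role. Which aligner and counter were run, and whether strand was used, is not given in the sources used here.

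Genes were kept with edgeR's filterByExpr (minimum count 10, minimum total 15; 13205 genes, 99.95% of counts), scaled by TMM and tested in R 4.3.3 by the two-sided quasi-likelihood test of edgeR 4.0.16, NcoR1ΔHep over flox, without the replicate number. P-values were adjusted by Benjamini-Hochberg over all tested genes. In counts simulated from these libraries (13024 genes), 11% of 2-fold and 76% of 4-fold changes were recovered, in genes drawn at random from all tested genes. Deviations are log2 CPM (TMM, prior count 1) less the mean of the 6 libraries. Coding length is that of the principal GENCODE transcript.

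Named with values were, in each subunit, the 4 members with the smallest p, the 3 highest and 2 lowest in FPKM and the 2 least correlated with the subunit median, the paralog copies with their parents, and in other lists the 2 genes with the smallest p. Some genes that this rule selects are not reported here. The members and lists were chosen with earlier results of these data known. Alternatives were other scalings and filters, DESeq2 1.42.0, limma 3.58.1 on counts and on log2 FPKM, and each library left out. Running medians by coding length were added after the data were seen.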

Additional observations from a re-analysis of the deposited data

How the results depend on the processing

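No ribosomal protein gene passed an adjusted p of 0.05 under any of the 18 alternatives run (other scalings, filters, tools, the replicate block and each library left out). Over all genes DESeq2 called 5 and every other alternative 0. Same-numbered libraries of the 2 groups did not deviate together (r of 0.0184, -0.321 and -0.462). Because these deviations were taken from the mean of each small group, they cannot decide whether the numbers pair the libraries. The replicate number as a block gave 0 calls and medians of 0.34 (large) and 0.35 (small subunit). The median log2 fold change ran from 0.12 to 0.60 (large) and 0.13 to 0.59 (small) with a library left out, lowest without NcoR1ΔHep 1 and highest without flox 3. The difference in the share of counts ran from 0.0333 to 0.718 percentage points, lowest without NcoR1ΔHep 1 and highest without NcoR1ΔHep 3. Of 701 values for 39 named genes, 680 kept their sign and 21 reversed (8 genes). With upper-quartile factors Rps4x was at 0.00 and Rps3 at 0.02. With a library left out, log2 fold changes ran from -0.05 to 0.26 for Rpl41, -0.15 to 1.01 for Rpl32l, -0.36 to 0.10 for Rpl3, -0.23 to 0.18 for Rps4x and -0.19 to 0.12 for Rps3. They ran from -0.03 to 0.28 for Rpl22, -0.08 to 0.29 for Rack1 and -0.04 to 0.16 for Rpl36al. The cause of these reversals was not tested. At this depth and number of libraries, edgeR recovered 11% of simulated 2-fold changes. The changed genes were drawn at random from all tested genes, and the counts of each gene were drawn independently. The simulation thus gives no such share for abundant genes that vary together, as the members do.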
